A study of Mus musculus with 6 samples.

Results

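The EGF receptor family and its ligands were examined in spinal cord RNA as 10 genes: the receptors Egfr, Erbb2, Erbb3 and Erbb4, the neuregulins Nrg1 to Nrg4, and the ligands Egf and Hbegf. They were chosen by name as receptors and ligands of this family, and their mouse Ensembl identifiers were looked up among the 35275 identifiers of the deposited table. All 10 were found, and all 10 passed the filter on low counts that left 16137 genes tested. Bulk poly(A) RNA-seq of whole spinal cord compared 3 Sox2 cKO mice with 3 Ctrl mice, to see which transcripts change when SOX2 is lost from astrocytes. The Sox2 cKO mice had the genotype mGfap-Cre:Sox2fl/fl, in which Cre under a mouse Gfap promoter removes floxed Sox2, mainly in astrocytes. For the Ctrl mice the sample labels give mGfap-Cre:Sox2+/+, the series text allows either the Cre or the floxed allele alone, and the study's methods describe littermates with the floxed allele. The strain is given as C57BL/6 for both groups, and the age as postnatal day 90 by the sample labels and day 80 by the protocol. RNA integrity numbers were above 6.8 by the sample records, where the study's methods state a higher bound. Both sexes were used, in the same mix in each group by the study's methods, the sex of each library not being given. A lower level in such bulk tissue can come from fewer cells of a type or from less RNA per cell, which cannot be told apart here.

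ErbB receptors are receptor tyrosine kinases that pair when a ligand binds and then signal through the RAS-ERK and PI3K-AKT pathways. EGFR binds EGF, HB-EGF and TGF-alpha, ERBB3 and ERBB4 bind neuregulins, and ERBB2 has no known ligand of its own and serves as the partner of the others, among them ERBB3, whose kinase is weak. In nervous tissue, NRG1 of axons acts on ERBB2 and ERBB3 of Schwann cells, ERBB4 is best known in interneurons, and EGFR is found in glial progenitors and in astrocytes that react to injury.

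Libraries held between 21507911 and 28392184 counts on genes, and the depths of the groups overlapped. Libraries carry numbers only, and values of single libraries are given in the order 2, 4, 6 for Ctrl and 1, 3, 5 for Sox2 cKO. Sox2, the deleted gene, stood at 19.9, 14.8 and 29.5 CPM (counts scaled to library size with TMM factors) in Ctrl against 3.16, 2.69 and 2.98 CPM in Sox2 cKO. Ctrl library 2 stood apart from its group. The chi-square statistic of its counts, per degree of freedom, was 10.8, 14.7 and 28.0 against Sox2 cKO libraries 5, 3 and 1, and 25.0 and 29.2 against Ctrl libraries 4 and 6. Over all 15 pairs this value ran from 6.74 to 83.4, so no library was a copy of another. The study's methods describe littermate controls, but which mice shared a litter or a day is not given. The p-values compare the groups as if these 6 libraries were independent.

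Of the 10 genes, 4 were differentially expressed, all lower in Sox2 cKO: the receptors Egfr and Erbb4, the neuregulin Nrg1, and Hbegf. A gene was called differentially expressed when the adjusted p-value of edgeR's quasi-likelihood test was below 0.05. None of the 10 was called higher, and 1, Nrg4, had a higher level in every Sox2 cKO library than in every Ctrl library without passing the test. Among all 16137 genes tested, 24.6% were called, with 12.4% lower and 12.2% higher. The median log2 fold change, Sox2 cKO minus Ctrl, was -0.16 over the 10 genes and 0.018 over all genes tested, and 7 of the 10 were negative. With Ctrl library 2 left out the count of called members was again 4, all lower, where 36.9% of all genes were called. It was 3 without Sox2 cKO library 5, where 16.3% of all genes were called. The count was 1 without Ctrl library 6 and 1 without Sox2 cKO library 3, against 6.54% and 8.31% of all genes. It was 0 without Ctrl library 4 and 0 without Sox2 cKO library 1, where 26 and 8 genes of any kind were called, or 0.159% and 0.0485%.

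**Figure D1:**
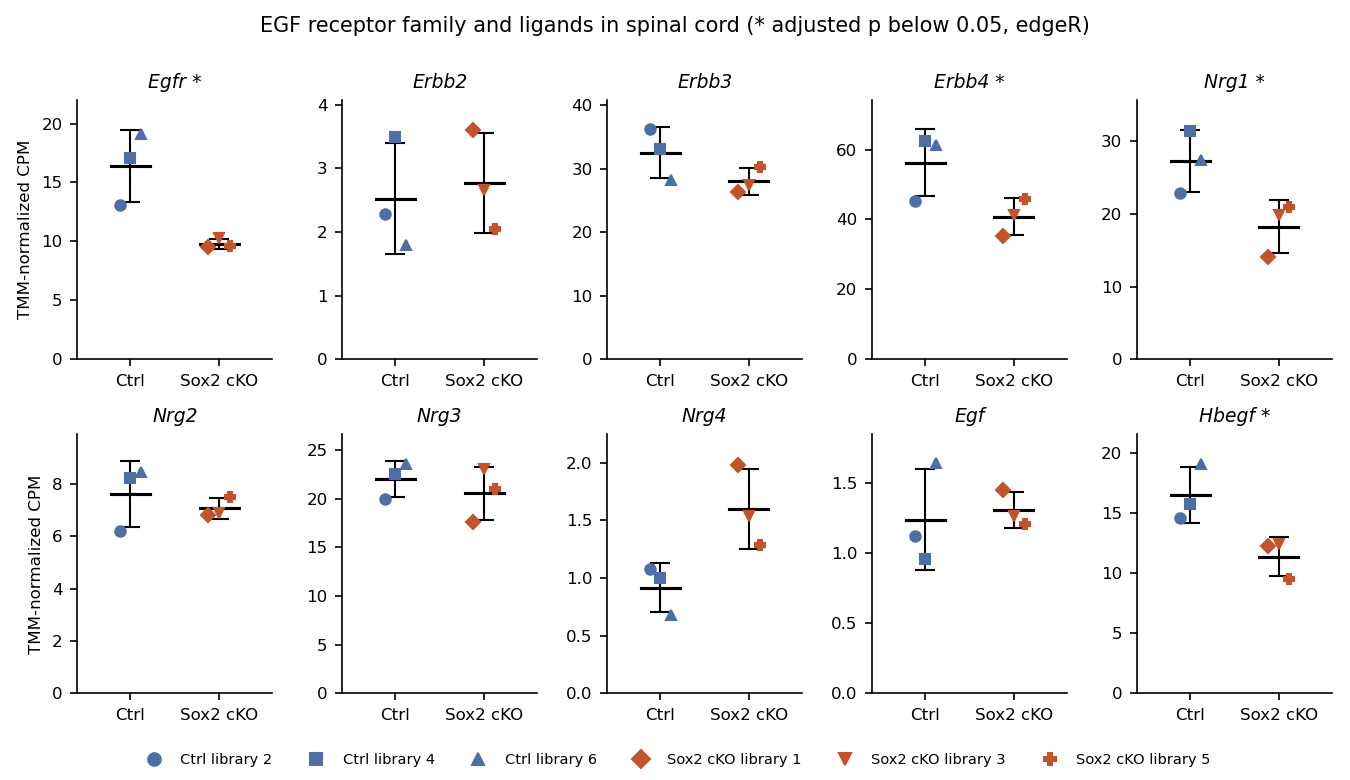
Each panel plots the TMM-normalized CPM (vertical axis, from 0) of 1 gene in the 3 Ctrl and the 3 Sox2 cKO libraries, with a bar for the mean and whiskers for 1 SD (n = 3). Egfr, Nrg1 and Hbegf are lower in every Sox2 cKO library than in every Ctrl library, Erbb4 is lower in the mean but its groups touch at 45.2 and 45.7 CPM, and Nrg4 is higher in every Sox2 cKO library.

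Egfr (ENSMUSG00000020122), the receptor of EGF, HB-EGF and TGF-alpha, lies on the plus strand of chromosome 11 of mm10 from 16752203 to 16918158. Erbb4 (ENSMUSG00000062209), a neuregulin receptor with a full kinase, lies on the minus strand of chromosome 1 from 68032186 to 69108059. The 250 bases before their annotated starts are shown because these are the 2 receptors that fell together, and because the core of the sequence bound by SOX2, CAAAG, can be read in them. Capitals mark CAAAG or its reverse complement CTTTG. The sequences are those of RefSeq on GRCm38.p6, the build of mm10, 5′ to 3′ on the strand of each gene, at chr11:16751953-16752202 for Egfr and chr1:69108060-69108309 for Erbb4.
Egfr: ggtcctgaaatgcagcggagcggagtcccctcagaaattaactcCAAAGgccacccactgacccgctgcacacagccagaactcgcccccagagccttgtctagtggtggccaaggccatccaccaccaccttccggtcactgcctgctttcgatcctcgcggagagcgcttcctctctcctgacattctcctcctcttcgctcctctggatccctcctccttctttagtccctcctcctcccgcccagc
Erbb4: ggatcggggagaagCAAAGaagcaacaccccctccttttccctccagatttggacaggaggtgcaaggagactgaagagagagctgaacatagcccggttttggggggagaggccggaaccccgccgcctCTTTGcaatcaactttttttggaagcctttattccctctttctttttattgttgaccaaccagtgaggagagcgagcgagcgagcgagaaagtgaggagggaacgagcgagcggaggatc

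The Egfr window holds 1 match, which begins 206 bases before the start, and the Erbb4 window holds 2, at 236 and 120 bases before it. Such a match is common in windows of this length: 48.6% of the 32851 mouse promoter windows in the same RefSeq set hold CAAAG on either strand. Windows of 6 of the 10 genes were read (Egfr, Erbb2, Erbb4, Nrg3, Nrg4 and Egf). These are 7 windows because Egf has 2, and 5 of the 7 hold a match. Nrg2 and Hbegf, on chromosome 18, were left out of this reading, and Erbb3 and Nrg1 had no entry in the set. The Nrg3 window and 1 of the Egf windows have none, and the Erbb2 and Nrg4 windows, of genes that were not called, each hold 1. Matches were thus found in the called members Egfr and Erbb4 and in uncalled members, while the windows of Nrg1 and Hbegf, also called, were not read. The binding of SOX2 was not measured in these libraries. The study reports SOX2-bound sites from ChIP-seq of adult cerebral cortex, which are not set against these windows here. The windows are rich in G and C, with 60.8% for Egfr and 54.0% for Erbb4, and hold 11 and 12 CpG pairs.

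Egfr stood at 13.1, 17.0 and 19.1 CPM in the Ctrl libraries. In the Sox2 cKO libraries it stood at 9.49, 10.3 and 9.60 CPM. The groups did not overlap, and the Sox2 cKO libraries lay much closer together than the Ctrl libraries. The mean fell from 16.4 ± 3.08 CPM in Ctrl to 9.79 ± 0.442 CPM in Sox2 cKO (SD, n = 3 each). The log2 fold change was -0.74 (standard error, SE, 0.14, 95% interval -1.06 to -0.42, adjusted p = 0.013 from edgeR). The exact permutation test of its CPM (two-sided) gave p = 0.1, and 3 against 3 libraries can give no smaller value. In edgeR fits that each left out 1 library, Egfr lost its call without Ctrl library 4 (adjusted p = 0.065) or Sox2 cKO library 1 (adjusted p = 0.066) and kept it in the other 4. These are the libraries of the study's own RNA-seq, so the fall of Egfr here is not evidence independent of that study.

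Erbb4 stood at 45.2, 62.4 and 61.2 CPM in Ctrl against 35.2, 41.3 and 45.7 CPM in Sox2 cKO. Ctrl library 2 was just below Sox2 cKO library 5, so the groups overlapped by this pair alone. The mean fell from 56.3 ± 9.62 to 40.7 ± 5.31 CPM (SD, n = 3 each), a log2 fold change of -0.46 (SE 0.14, 95% interval -0.77 to -0.16, adjusted p = 0.034 from edgeR). The same exact test gave p = 0.2. Without Ctrl library 2 the log2 fold change was -0.60, with an adjusted p of 0.0023 from edgeR. It was also called without Sox2 cKO library 5, and it lost its call without each of the other 4 libraries, where the adjusted p from edgeR reached 0.13 without Ctrl library 4.

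Erbb3 (ENSMUSG00000018166), the neuregulin receptor that signals through its partners, lies on the minus strand of chromosome 10 from 128567523 to 128589652. Its levels were 36.2, 33.1 and 28.2 CPM in Ctrl against 26.3, 27.5 and 30.3 CPM in Sox2 cKO. The groups overlapped, and the log2 fold change of -0.21 did not pass the test (SE 0.11, 95% interval -0.46 to 0.03, adjusted p = 0.17 from edgeR). Erbb3 was the only receptor for which Ctrl library 2 was the highest library of all 6.

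Erbb2 (ENSMUSG00000062312), the receptor without a known ligand, lies on the plus strand of chromosome 11 from 98412470 to 98437716. It was the lowest of the 4 receptors, at 2.29, 3.49 and 1.79 CPM in Ctrl against 3.60, 2.66 and 2.04 CPM in Sox2 cKO. The groups overlapped widely, and the interval of the log2 fold change reached from -0.53 to 0.77 around 0.12 (SE 0.29, adjusted p = 0.79 from edgeR). That interval holds changes in either direction, and Erbb2 had 37 to 84 counts a library. Mien1, on the opposite strand, overlaps Erbb2 and was itself called higher, by a log2 fold change of 1.13, and the strand setting of the counting is not given in the sources used here. Its part in the value of Erbb2 was not tested.

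The 4 receptors together summed to between 11.3 and 12.6 FPKM in the Ctrl libraries and to between 9.46 and 10.3 FPKM in the Sox2 cKO libraries. FPKM, counts divided by gene length and library size, allows levels of different genes to be added. The sums of the groups did not overlap (exact two-sided permutation test, p = 0.1, the smallest possible). The 4 neuregulins summed to between 18.3 and 22.9 FPKM in Ctrl and to between 15.1 and 18.8 FPKM in Sox2 cKO, so that their sums overlapped (p = 0.3 by the same exact test). Egf and Hbegf together summed to between 6.35 and 7.92 FPKM in Ctrl and to between 4.30 and 5.79 FPKM in Sox2 cKO, without overlap (p = 0.1 by the same exact test). These sums rest on the gene lengths behind the FPKM values and on scaling by total count in place of TMM factors. Nrg1 was given 2103 bases, where its annotated exons together cover 10351, and Hbegf 2373, where they cover 4834. For the 4 receptors these lengths differed little.

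Nrg1 (ENSMUSG00000062991), the neuregulin that axons present to glia, lies on the minus strand of chromosome 8 from 31814551 to 32884029. It stood at 22.9, 31.5 and 27.5 CPM in Ctrl against 14.1, 19.8 and 20.9 CPM in Sox2 cKO. The groups did not overlap, with Sox2 cKO library 5 and Ctrl library 2 the nearest pair. The mean fell from 27.3 ± 4.28 to 18.3 ± 3.69 CPM (SD, n = 3 each). The log2 fold change was -0.58 (SE 0.16, 95% interval -0.93 to -0.22, adjusted p = 0.028 from edgeR). Nrg1 kept its call without Ctrl library 2 or Sox2 cKO library 5 and lost it without each of the other 4, with an adjusted p from edgeR of up to 0.12 without Ctrl library 4.

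Nrg2 (ENSMUSG00000060275) and Nrg3 (ENSMUSG00000041014), neuregulins made mainly by neurons, showed no such separation. Nrg2 stood at 6.19, 8.23 and 8.45 CPM in Ctrl against 6.81, 6.89 and 7.52 CPM in Sox2 cKO, where every library lay inside the Ctrl range. Its log2 fold change was -0.11 (SE 0.15, adjusted p = 0.64 from edgeR). Nrg3, on the minus strand of chromosome 14 from 38368952 to 39473088, and a ligand of ERBB4, stood at 20.0, 22.6 and 23.6 CPM in Ctrl against 17.6, 23.1 and 20.97 CPM in Sox2 cKO. Its groups overlapped as well, with a log2 fold change of -0.099 (SE 0.12, adjusted p = 0.56 from edgeR).

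Nrg4 (ENSMUSG00000032311), a neuregulin that binds ERBB4 and is better known from fat tissue, lies on the minus strand of chromosome 9 from 55220222 to 55326844. It was the only member whose groups separated upward, but it was scarce, with 24, 24 and 14 reads in Ctrl against 45, 45 and 34 reads in Sox2 cKO. In CPM these are 1.08, 0.998 and 0.676 against 1.98, 1.54 and 1.28. The log2 fold change was 0.79 (SE 0.30, 95% interval 0.13 to 1.45, adjusted p = 0.077 from edgeR), and the exact permutation test gave p = 0.1. Fbxo22, on the opposite strand, overlaps Nrg4 and had 4427 reads over the 6 libraries. Its own log2 fold change was -0.12 and was not called.

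Of the 10 genes, 4 had groups that did not overlap in CPM, 3 lower and 1 higher, where 44.7% of all genes tested did not overlap, 22.1% lower and 22.6% higher. The share of members was thus close to that of all genes for this looser criterion.

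Hbegf (ENSMUSG00000024486), a membrane-bound ligand of EGFR and ERBB4 that is released by cleavage, stood at 14.6, 15.8 and 19.1 CPM in Ctrl against 12.3, 12.4 and 9.48 CPM in Sox2 cKO. All Sox2 cKO libraries were below all Ctrl libraries, and the extremes were Ctrl library 6 and Sox2 cKO library 5. The mean fell from 16.5 ± 2.33 to 11.4 ± 1.65 CPM (SD, n = 3 each), a log2 fold change of -0.54 (SE 0.14, 95% interval -0.86 to -0.22, adjusted p = 0.026 from edgeR). With 1 library left out it was called only without Ctrl library 2, and the adjusted p from edgeR otherwise lay between 0.055 and 0.093.

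Egf (ENSMUSG00000028017), the ligand that gave the family its name, lies on the minus strand of chromosome 3 from 129677565 to 129755316. It was scarce, at 1.12, 0.956 and 1.64 CPM in Ctrl against 1.45, 1.26 and 1.21 CPM in Sox2 cKO. All Sox2 cKO libraries lay inside the Ctrl range, and the log2 fold change was 0.080 (SE 0.29, adjusted p = 0.86 from edgeR).

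Per length, the order of the members in Ctrl by FPKM was Nrg1, Hbegf, Nrg3, Erbb3, Erbb4, Nrg2, Egfr, Erbb2, Nrg4 and Egf. Mean FPKM was 12.5 ± 1.79 for Nrg1, 6.70 ± 0.781 for Hbegf, 5.30 ± 0.306 for Nrg3 and 5.23 ± 0.782 for Erbb3. It was 4.50 ± 0.677 for Erbb4, 2.45 ± 0.344 for Nrg2, 1.55 ± 0.252 for Egfr and 0.486 ± 0.170 for Erbb2, and under this for Nrg4 and Egf (SD, n = 3). The library values of Nrg3 and Erbb3, of Erbb3 and Erbb4, of Erbb2 and Nrg4 and of Nrg4 and Egf overlapped, so the order within these pairs is not fixed by the data. In Sox2 cKO, Nrg1 again came first, at 8.96 ± 1.64 FPKM, and Egfr was again at place 7 of 10, at 0.992 ± 0.0461 FPKM. Nrg4 and Erbb2 exchanged places there, with overlapping values. Nrg3, at 5.29 ± 0.644 FPKM, and Hbegf, at 4.97 ± 0.804 FPKM, also exchanged places and overlapped in Sox2 cKO, whereas in Ctrl Hbegf had been above Nrg3 without overlap.

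The first place of Nrg1 rested on the gene length used. The FPKM values were made with 2103 bases for Nrg1, whereas the union of its exons in GENCODE M21 is 10351 bases, since neuregulin genes have many isoforms. Per kilobase of that union, a scale added after the data were seen, Erbb3 led at 5.40 ± 0.672 CPM per kilobase and Erbb4 followed at 4.55 ± 0.779. Hbegf came next at 3.42 ± 0.482, then Nrg3 at 3.23 ± 0.269 and Nrg1 at 2.64 ± 0.413. Neighbours among these genes overlapped in their library values. Egfr, Erbb2, Nrg4 and Egf kept places 7 to 10. For Egfr, Erbb2, Erbb3 and Erbb4 the lengths differed little, for example 10208 against 11326 bases in Egfr and 12037 against 12355 in Erbb4.

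**Figure D2:**
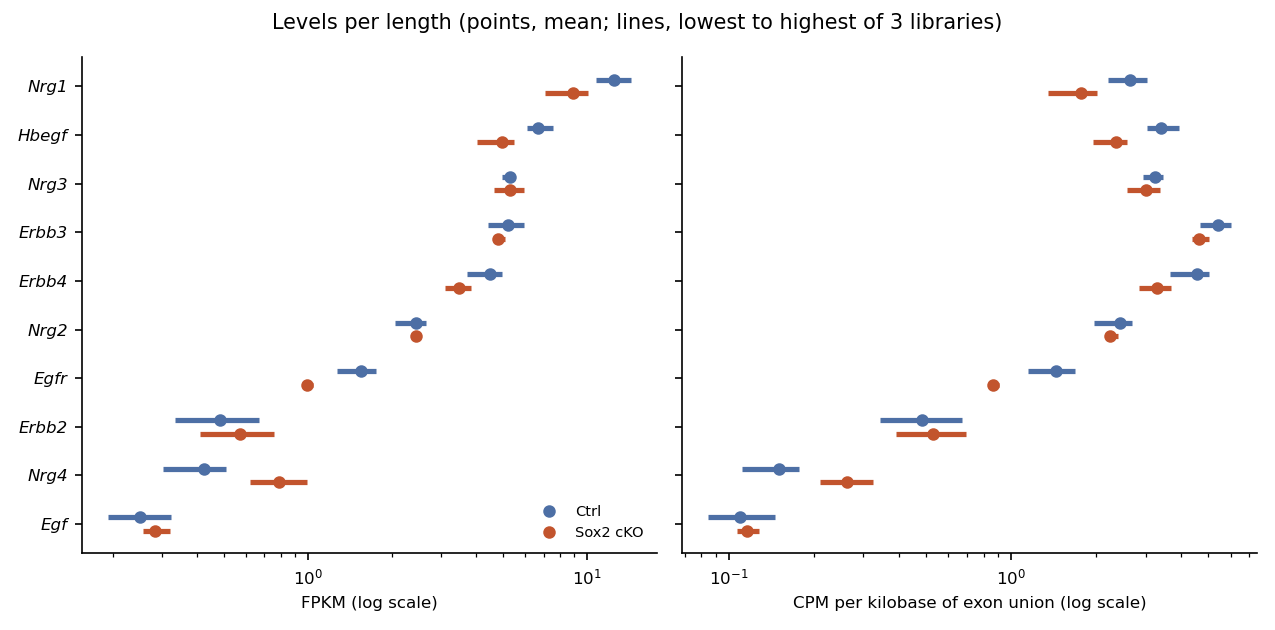
Points are means and lines run from the lowest to the highest of 3 libraries for each gene in Ctrl and Sox2 cKO, on log axes, as FPKM (left) and as CPM per kilobase of the union of exons (right). Nrg1 is the highest gene on the left, at 12.5 FPKM in Ctrl, and at place 5 in Ctrl on the right, at 2.64, while Egfr, Erbb2, Nrg4 and Egf are the lowest genes of Ctrl on both scales.

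Gene length also went with the fold changes. The tested genes were split by length into 5 groups of similar size. In the longest group, from 4872 bases, which holds all 4 receptors, 36.0% of genes were called lower and 1.74% higher, and the median log2 fold change was -0.25. In the group from 1709 to 2614 bases, which holds Nrg1, Nrg4 and Hbegf, 3.32% were called lower and 15.3% higher, and the median was 0.15. On this length, Egfr and Erbb4 lay on the side to which long genes as a whole moved, and Nrg1 and Hbegf on the opposite side from genes of their group. By the exon union Nrg1 instead falls in the longest of 5 groups, from 7377 bases, together with Egfr, Erbb4 and Egf, where 32.7% of genes were called lower and the median was -0.21. Hbegf falls in the middle group by that length, from 3543 to 5042 bases, where 8.67% were called lower and the median was 0.022. The side on which Nrg1 lay thus depended on the length used. By the length behind the FPKM values, 7.03% of genes were called lower in the group of Nrg2, from 2615 to 3544 bases, and 14.2% in that of Nrg3 and Egf, from 3545 to 4869 bases.

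**Figure D3:**
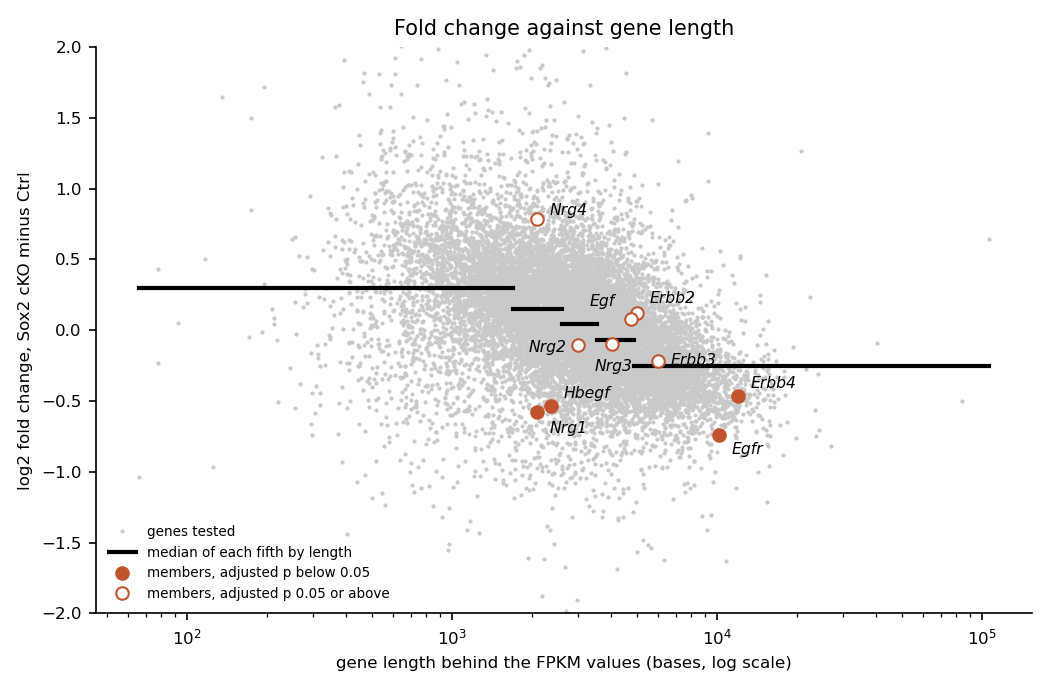
Each grey point is 1 of the 16137 genes tested, placed by the length behind its FPKM value (horizontal, log scale) and its log2 fold change (vertical), with black lines for the median of each of 5 length groups and labelled circles for the 10 members. The median runs from 0.30 in the shortest group to -0.25 in the longest, Egfr and Erbb4 sit at the long end, and 28 genes beyond a log2 fold change of 2 in size are outside the plotted range.

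When each library was corrected for its own trend with length, the log2 fold change of Egfr became -0.36 (adjusted p = 0.059 from edgeR) and that of Erbb4 became -0.046 (adjusted p = 0.70 from edgeR). Those of Nrg1 and Hbegf became -0.73 and -0.66 and stayed below the threshold (adjusted p = 0.030 and 0.025 from edgeR). With this correction 2 of the 10 members were called, both lower, against 6.99% of all genes called lower and 6.08% higher, or 13.1% in all. With the exon union as length, a correction added after the data were seen, 9.1% of genes were called lower and 8.6% higher, or 17.7% in all. Egfr was then called at -0.51 (adjusted p = 0.026 from edgeR) and Hbegf at -0.52 (adjusted p = 0.034 from edgeR). Nrg1 was at -0.37 (adjusted p = 0.070 from edgeR) and Erbb4 at -0.21 (adjusted p = 0.16 from edgeR). Hbegf was therefore the only member called under all 3 treatments of length, and Erbb4 lost its call under both corrections.

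**Figure D4:**
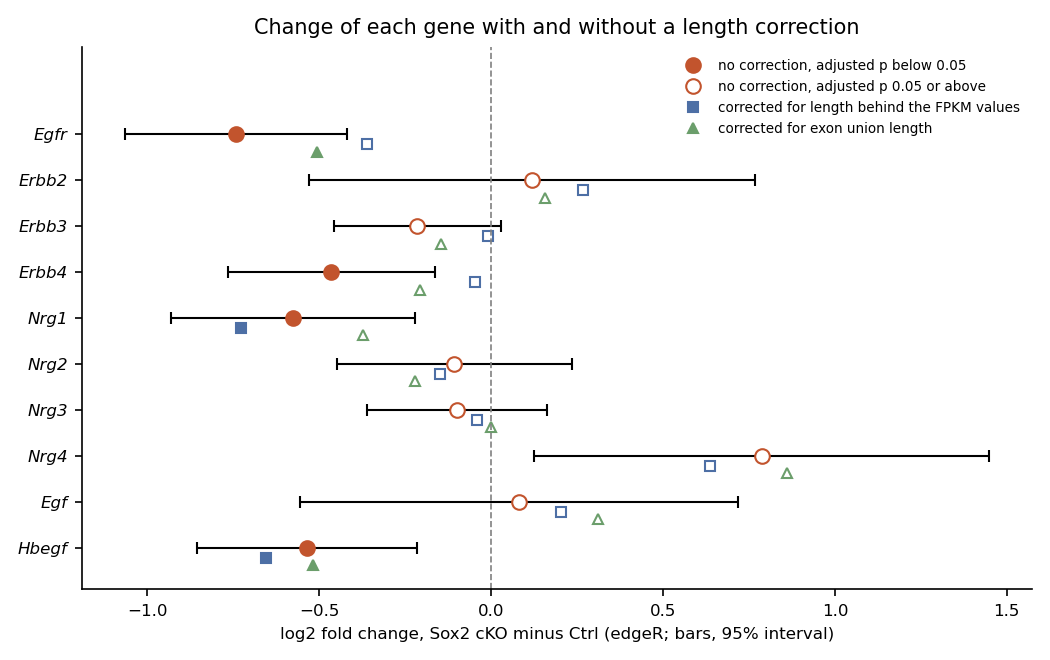
Circles with bars give the log2 fold change, Sox2 cKO minus Ctrl, and its 95% interval for each member, and squares and triangles give the value after correction for the length behind the FPKM values or for the exon union. Filled symbols have an adjusted p-value below 0.05. Erbb4 moves from -0.46 to -0.046 and -0.21, Egfr from -0.74 to -0.36 and -0.51, and Hbegf stays between -0.52 and -0.66.

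DESeq2, the tool of the study's methods, called the same number of members, 4, all lower, and 28.1% of its tested genes, 15.2% lower and 12.9% higher. Its adjusted p-values were 0.00016 for Egfr, 0.0074 for Erbb4, 0.0046 for Nrg1 and 0.0061 for Hbegf. On log2(FPKM + 1), which scales by total count in place of TMM factors, limma called 1 member, Egfr, at -0.35 on that scale (adjusted p = 0.044 from limma). By that test 24.3% of all genes were called, 6.2% lower and 18.1% higher.

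Markers of the targeted cells moved with these genes. Of 12 astrocyte markers 6 were called lower and 0 higher, among them Gfap with a log2 fold change of -1.11, Slc1a2 with -0.62 and Aqp4 with -0.44, and the median of the list was -0.31. Their summed level was 2182 to 2613 FPKM in Ctrl and 1595 to 1740 FPKM in Sox2 cKO, without overlap. Markers of oligodendrocyte precursors, which also carry ErbB receptors, were called lower in 4 of 5 tested, with sums of 46.6 to 51.2 FPKM in Ctrl and 37.8 to 40.5 FPKM in Sox2 cKO. Among the precursor markers Pdgfra had a log2 fold change of -0.37, Cspg4 of -0.67 and Gpr17 of -0.87. For comparison, 12.4% of all genes tested were called lower and 12.2% higher. In the longest of the 5 length groups 36.0% were called lower. The marker lists were not counted again under the length corrections. The part of either cell type in the falls of Egfr, Erbb4, Nrg1 and Hbegf was not tested beyond the ratio that follows.

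Egfr was set against the summed FPKM of the 12 astrocyte markers in each library. The log2 ratio was -10.75, -10.43 and -10.53 in Ctrl against -10.79, -10.58 and -10.74 in Sox2 cKO. The ratios overlapped and differed by -0.13 (exact permutation test, p = 0.3). Against the mean log2 FPKM of the markers, which gives every marker the same weight, the difference was -0.36 and the groups did not overlap (p = 0.1 by the same exact test, the smallest possible). Gfap and Slc1a2, the abundant markers that fell most, weigh heavily in the sum.

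Other cell types of the tissue were followed too, and bulk RNA does not show which of them carry the members. Neuron markers, 1 of 13 called and that 1 higher, summed to 2914 to 3119 FPKM in Ctrl and 3152 to 3215 FPKM in Sox2 cKO. Schwann cell markers, which mark nerve roots rich in Erbb3, had 0 of 7 called, with sums of 22.4 to 42.4 FPKM in Ctrl and 34.1 to 45.6 FPKM in Sox2 cKO. Oligodendrocyte markers had 1 of 12 called, lower. Motor neuron and ependymal markers had 1 of 6 and 1 of 4 called, lower, and microglial and mural markers had 2 of 10 and 1 of 6 called, higher. None of 6 fibroblast and 5 red blood cell markers was called. Endothelial markers summed to 71.1 to 84.0 FPKM in Ctrl and 103 to 163 FPKM in Sox2 cKO with 1 of 8 called, and neutrophil markers had 5 of 6 called higher, with a median log2 fold change of 1.70. The shares over all genes tested were 12.4% called lower and 12.2% called higher. No change of a cell type is read from counts of 1 or 2 in lists this short. No marker of any list was at 0 in all 6 libraries. The part of these cell types in the members' values was not tested.

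The 3 genes whose log2 CPM followed each receptor most closely over the 6 libraries, among 10100 genes with a mean of at least 10 CPM, are given as a description. For Egfr they were Cd44, a receptor of hyaluronan, with a Pearson r of 0.999, Sept2 with 0.998 and Igf2r with 0.997. For Erbb4 they were Bcl2, an inhibitor of apoptosis, with r = 0.9997, Hdac4 with 0.998 and Prdm2 with 0.998. All 6 of these were themselves called lower, so the difference between the groups is part of the correlation. For Erbb3 they were Ino80c, Hnrnpr and St18, a transcription factor of oligodendrocytes, with r between 0.969 and 0.979, and for Erbb2 they were Itm2c, Stat2 and Evc2, with r between 0.970 and 0.997. None of these last 6 was called. Picked as the highest of so many genes over 6 libraries, these values of r are high by the choice itself. Erbb2 also had few counts, between 37 and 84 a library.

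The genes around the receptors were taken from 5 lists that hold 92 genes, 89 of them tested. Of the 89, 27 were called lower and 4 higher, and their median log2 fold change was -0.088. These are 34.8% of the 89, where 24.6% of all genes tested were called, 12.4% lower and 12.2% higher. With the length correction 14 of the 89 were called, or 15.7% against 13.1% of all genes, and with the exon union as length 20, or 22.5% against 17.7%. The lists were chosen with earlier results of these libraries known.

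Among the 5 further ligands of EGFR or ERBB4, Tgfa, which encodes TGF-alpha, stood out by its level, at 21.2 ± 3.48 FPKM in Ctrl, more than any of the 10 members on that scale. Tgfa stood at 75.3, 93.9 and 110.6 CPM in Ctrl against 53.7, 59.8 and 65.2 CPM in Sox2 cKO. The groups did not overlap, and Tgfa had a log2 fold change of -0.65 (SE 0.13, adjusted p = 0.014 from edgeR). It was called under both length corrections, at -0.57 and -0.56. Btc, which encodes betacellulin, was not called, at 0.32 (adjusted p = 0.45 from edgeR), and Areg, Ereg and Epgn did not pass the filter on low counts.

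Where 12.4% of all genes tested were called lower, 2 of 8 proteases and cofactors that release ligands were called, both lower. They were Adam19, at -0.42, and Bace1, which cleaves NRG1, at -0.30 (adjusted p = 0.031 and 0.046 from edgeR), and both lost their call under either length correction. Adam17, the main releasing enzyme of HB-EGF and TGF-alpha, was at -0.20 and Adam10 at -0.046, and neither was called.

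Of 10 regulators of the receptors, 4 were called, all lower, and 3 of the 10 were called under either length correction. Of all genes tested 12.4% were called lower, and 6.99% and 9.1% under the length corrections. Lrig1, which promotes the degradation of ErbB receptors, stood at 69.4, 81.4 and 119.0 CPM in Ctrl against 39.6, 39.7 and 36.8 CPM in Sox2 cKO. Its log2 fold change was -1.22 (SE 0.17, adjusted p = 0.010 from edgeR), larger in size than that of any member, a difference that was not tested. Cbl, a ubiquitin ligase that takes EGFR to degradation, fell by 0.85, and Erbin, a scaffold that binds ERBB2, fell by 0.63 on the log2 scale (adjusted p = 0.017 and 0.012 from edgeR). Socs5 fell by 0.32 and was not called under either length correction. Errfi1, a feedback inhibitor of the EGFR kinase, was at 0.042 and was not called.

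Of 49 signal transducers, 18 were called lower and 3 higher, against 12.4% and 12.2% of all genes tested, with a median of -0.18. Gab1, an adaptor between the receptors and PI3K, fell by 0.51 and Gab2 by 0.53, Nras by 0.44, Braf by 0.57, Pik3ca by 0.34 and Gsk3b by 0.72. Those called higher were Araf at 0.30, Plcg1 at 0.26 and Eif4ebp1 at 0.81. With the length correction 7 were called lower and 1 higher, and with the exon union as length 11 lower and 3 higher. The shares of all genes called lower and higher were 6.99% and 6.08% with the first correction and 9.1% and 8.6% with the second. Gab1, Gab2, Nras, Gsk3b and Plcg1 were called under both corrections, while Braf was at -0.20 (adjusted p = 0.077 from edgeR) under the first and called at -0.29 under the second. Pik3ca was not called under either, at -0.0059 and -0.17 (adjusted p = 0.96 and 0.097 from edgeR). Araf was called under the second alone, and Eif4ebp1 under neither.

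Of 20 targets and feedback genes of the ERK pathway, 2 were called lower and 1 higher, with a median of 0.012. Of all genes tested 12.4% were called lower and 12.2% higher. Spry2, a feedback inhibitor of receptor tyrosine kinases, stood at 32.0, 42.2 and 44.3 CPM in Ctrl against 24.9, 21.6 and 28.0 CPM in Sox2 cKO. It fell by 0.67 (adjusted p = 0.014 from edgeR), and Spred1, another inhibitor of the pathway, fell by 0.32 and was not called under either length correction. Ier3, an immediate early gene, rose by 1.23 (adjusted p = 0.015 from edgeR). Spry2 and Ier3 were called under both length corrections.

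**Figure D5:**
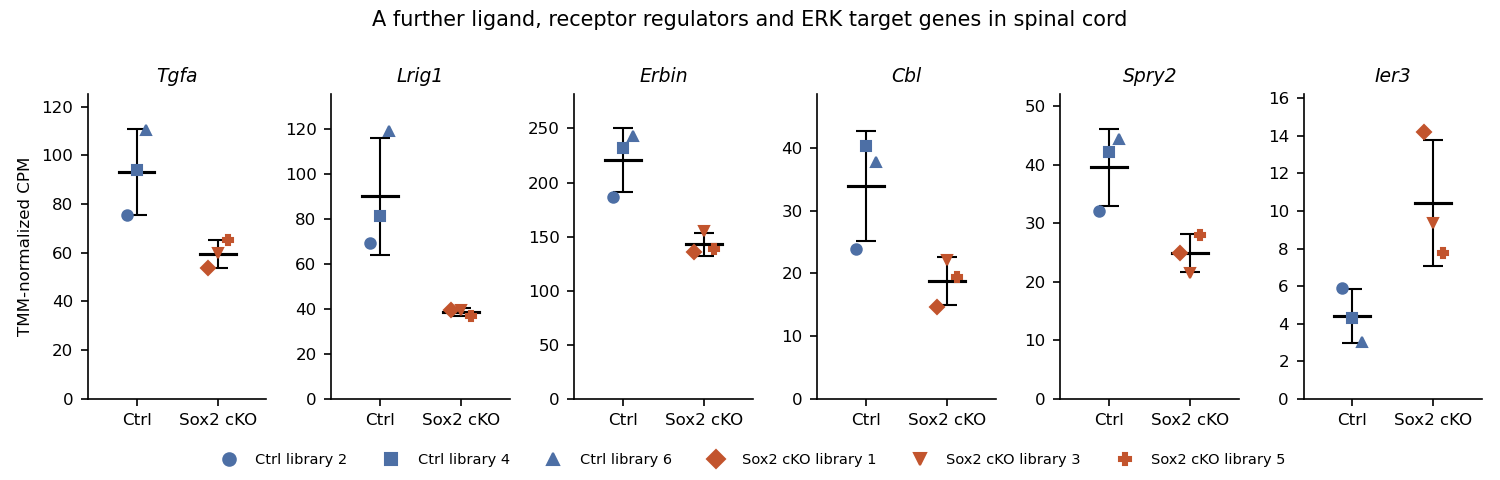
Each panel plots the TMM-normalized CPM (vertical axis, from 0) of 1 gene in the 3 Ctrl and 3 Sox2 cKO libraries, with a bar for the mean and whiskers for 1 SD (n = 3). Tgfa, Lrig1, Erbin, Cbl and Spry2 are lower in every Sox2 cKO library than in every Ctrl library, with the 3 Sox2 cKO libraries of Lrig1 between 36.8 and 39.7 CPM, and Ier3 is higher.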

How the data were processed

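Spinal cord poly(A) RNA of 3 Sox2 cKO and 3 Ctrl mice was sequenced after a directional library kit. The authors aligned reads to mm10 with STAR 2.5, counted them on genes with HTSeq 0.6.1 and deposited raw counts per gene. The authors derived FPKM from these counts with a length for each gene and deposited them too. The column names are numbers that match no sample label. Columns were put in groups by a rule on their last digit that came with the choice of genes, not from the sample labels. As a check, group means of normalized counts were set against those in a table published with the study, of which a part was at hand. They matched for 1999 of 1999 genes (relative tolerance 1e-05), and for 0 with the groups exchanged. That table's fold changes and p-values were not used. There were 0 further columns of single samples.

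Genes were named from GENCODE M21 (34490 of 35275 identifiers). Counts were tested with edgeR 4.0.16 in R 4.3.3 (filterByExpr, TMM, quasi-likelihood, no covariate, Benjamini-Hochberg over 16137 genes at 0.05). Standard errors were derived from fold changes and test statistics. FPKM values were tested with limma 3.58.1 on log2 values for genes with a mean of at least 0.5 FPKM, and DESeq2 1.42.0 was run on counts. Length and GC corrections used a lowess curve of span 0.3 in each library. The fits were tested on simulated data with 200 changed genes, where 2.97% of the calls of edgeR fell on unchanged genes. A trend with length was then added to the genes of the simulated Sox2 cKO libraries. Without the length correction 78.3% of calls fell outside the 200 genes, and with it 8.06%. Genes outside the 200 were also shifted by the added trend, so 78.3% is not a share of false calls. The correction is built to remove a trend of this form, so the simulation does not test it on real libraries. Upper quartile scaling, 2 other filters on low counts and fits without each library were alternatives. The members and lists were chosen with earlier results of these data known. All members are named. Of each list, genes that passed the test could be named, and otherwise the largest changes. Btc, Adam10, Adam17 and Errfi1, named as key parts of the pathway, were chosen after their values were seen. Lhfpl3, a precursor marker, was not matched by symbol. Reads are not independent molecules, since libraries were amplified without molecular identifiers.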

Additional observations from a re-analysis of the deposited data

How the results depend on the processing

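Of the 4 members called lower, Egfr was called in 8 of the 9 fits other than those leaving out a library, Hbegf and Nrg1 in 7 and 6, and Erbb4 in 5, and all kept their direction. With the length correction 2109 genes, 2 members and 14 pathway genes were called, and with the exon union as length 2 members and 20 pathway genes. limma on log2(FPKM + 1) and on log2(FPKM + 0.1) called 1 member each. The split of all calls was 2008 lower to 1962 higher in edgeR and 915 to 2670 in limma on log2(FPKM + 1). Leaving out 1 library moved the calls of edgeR most: from 8 to 6119 genes, 0 to 4 members and 0 to 40 pathway genes, the lowest without Sox2 cKO library 1 and the highest without Ctrl library 2. At an unadjusted p under 0.05, there were 4945 genes, 4 members and 35 pathway genes without Sox2 cKO library 1, against 6391, 5 and 42 with all 6 libraries. DESeq2 without each library, added after the data were seen, called 1996 to 5607 genes, 2 to 4 members and 17 to 38 pathway genes. Egfr was called in all 6 of these DESeq2 fits, and in edgeR it was not called without Ctrl library 4 (adjusted p = 0.065) or Sox2 cKO library 1 (adjusted p = 0.066). Its log2 fold change ran from -0.88 to -0.62 over the 6 edgeR fits, and those of Erbb4 from -0.60 to -0.37, of Nrg1 from -0.69 to -0.42 and of Hbegf from -0.62 to -0.42. The small changes that turned sign were never called: Nrg2 on FPKM (0.00016 and 0.0026), Erbb2 (-0.12 to 0.43 over all fits without 1 library, negative without Ctrl library 6 or Sox2 cKO library 1), and Egf (-0.080 to 0.33, negative without Ctrl library 4 in edgeR and without Ctrl library 2 in DESeq2). The difference of the Egfr ratio to astrocyte markers was between -0.22 and -0.06 without each library. Per exon union the ranks in Ctrl became 1 for Erbb3, 2 for Erbb4, 3 for Hbegf, 4 for Nrg3 and 5 for Nrg1. The cause of these shifts was not tested, and Erbb2, Nrg4 and Egf had low counts. No paired analysis was possible because the columns carry no replicate numbers.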
